A study of Arabidopsis thaliana with 9 samples.

Results

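The genes described here are 49 loci of Arabidopsis thaliana that encode proteins of the cytosolic ribosome. They were chosen as a list of loci for large-subunit and small-subunit proteins, and their probes were found by matching the accession printed with each probe to the locus. All 49 loci had a probe, and all 49 were among the 23058 genes tested, of which 19069 carried a locus name. The reference table of genes names 23 of the 49 as ribosomal proteins, 12 of the large subunit and 11 of the small subunit, and the other 26 are given by their locus or by the symbol in that table.

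RNA came from whole 4-week-old Col-0 seedlings, roots and shoots together, grown in irrigated pots of soil. The 3 groups, each with 3 one-colour Agilent arrays, were control seedlings given water, seedlings given NaCl at 150 mM and seedlings given the stress hormone abscisic acid (ABA) at 10 μM, all sampled at 6 h. No mutant or transgenic plants were used. The replicates of a treatment were portions of 1 pool of seedlings in the study's methods, whereas the design text given to GEO speaks of different plants in each experiment. The p-values therefore measure the spread between these samples, which may be technical. The 3 NaCl arrays were on 1 slide scanned 235 days apart from the others, so that salt treatment and slide or scan day cannot be told apart. Control and ABA arrays shared a scan day, on separate slides. The controls were on 1 slide, ABA 1 on another, and ABA 2 and ABA 3 together on a further one. ABA treatment and slide therefore cannot be told apart either.

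The cytosolic ribosome is built from a large and a small subunit, each of ribosomal RNA and many proteins, and it makes nearly all proteins of the cell that are encoded in the nucleus. In plants each ribosomal protein is usually encoded by several genes, whose products differ little, and their messages are abundant where cells grow and divide. Making ribosomes is costly, and ribosomal protein genes are known as a group that is commonly regulated together with growth, in part through the TOR kinase and its target S6 kinase, which phosphorylates the small-subunit protein S6.

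Between 68.9% and 72.0% of the probes of an array were well above background, and the arrays of a group correlated at 0.941 to 0.985 over all genes tested. All 49 members were well above background on all 9 arrays and none was saturated. Levels are given as log2 intensity after quantile normalization, on which scale a difference of 1 is a 2-fold change, and they are compared between arrays for the same probe only. Spots marked as non-uniform or outlying were left out, which removed 4 member values on control 1, 4 on control 2 and 1 on NaCl 2. The number of arrays, 3 a group, limits the precision.

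The question of the salt comparison was how the ribosomal protein genes differed between NaCl-treated and control seedlings. 1 of the 49 genes rose and 0 fell at a Benjamini-Hochberg adjusted p under 0.05 in limma with at least a 2-fold change. Over all genes tested, 10.5% rose and 12.6% fell by the same rule. By the adjusted p alone, 3 members were higher and 0 lower, against 17.3% and 22.1% of all genes (39.4% in either direction). At an unadjusted p of 0.05, 4 members passed, 3 higher and 1 lower, where 49.6% of all genes did. The median log2 fold change of the members was -0.11, beside -0.07 over all genes, with a range from -0.84 to 1.12. The fitted change was above 0 for 21 members and below 0 for 28, or 57.1%, where it was below 0 for 53.7% of all genes. The 3 NaCl arrays lay wholly above the 3 control arrays for 7 members and wholly below for 3, where 24% and 29% of all genes did so. 

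The gene that rose with salt was AT5G39850, which the list of members names as a copy of the small-subunit protein S9. Its log2 intensity was 8.22, 8.70 and 8.91 on the control arrays and 9.80, 9.70 and 9.68 on the NaCl arrays. All NaCl values were above all control values, and the NaCl arrays lay closer together than the control arrays. The log2 fold change was 1.12 with a standard error of 0.24 and an adjusted p of 0.0081 in limma. Without control 1, the lowest control array, it was 0.92 with an adjusted p of 0.023, which is below the 2-fold limit. Over 15 alternative settings of the processing and the test, the log2 fold change ranged from 0.20 to 1.17. The call held in 11 of the 15, and was lost, among others, without scaling between arrays and in the series table. The gene has 1 probe on the array, so no other probe could be set beside it.

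2 more members passed the adjusted p alone with salt. RPS18C, a copy of the small-subunit protein S18, stood at 14.16, 14.15 and 14.29 on the control arrays and at 14.77, 14.78 and 15.05 on the NaCl arrays. Its groups did not overlap, and the log2 fold change was 0.66 with a standard error of 0.20 and an adjusted p of 0.031. With each array left out in turn, the log2 fold change stayed between 0.57 and 0.71 and the limma adjusted p ranged from 0.011 to 0.077. Its second probe gave 0.49.

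AT5G35530 stood at 13.19, 12.76 and 12.92 on the control arrays and at 13.58, 13.59 and 13.85 on the NaCl arrays. Here too the groups did not overlap, and the log2 fold change was 0.72 with a standard error of 0.24 and an adjusted p of 0.049. Leaving out any 1 of the control or NaCl arrays took that adjusted p above 0.05, to between 0.057 and 0.13. The dimmer probe of AT5G35530 went the other way, with a log2 difference of -0.51 between NaCl and control, so the direction for this gene depends on the probe.

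At the other end of the order, RPL24A, the large-subunit protein L24, had the lowest fitted change with salt. Its log2 intensity was 13.84, 13.32 and 13.36 on the control arrays and 12.19, 12.35 and 13.46 on the NaCl arrays. NaCl 1 and NaCl 2 were below all control arrays, whereas NaCl 3 lay within them, and the log2 difference was -0.84 with a standard error of 0.40 and an adjusted p of 0.13. Without NaCl 3, RPL24A was called lower at -1.24 with an adjusted p of 0.028.

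RPS6, a copy of the S6 kinase target S6, came next in that order. It stood at 14.65, 13.89 and 14.16 on the control arrays and at 13.31, 13.04 and 14.09 on the NaCl arrays, a log2 difference of -0.75 with a standard error of 0.44 and an adjusted p of 0.21. As for RPL24A, NaCl 3 was the array that overlapped the controls. AT5G02870 had a log2 difference of -0.63 with an adjusted p of 0.17, and NaCl 3 was again its highest NaCl array.

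**Figure D1:**
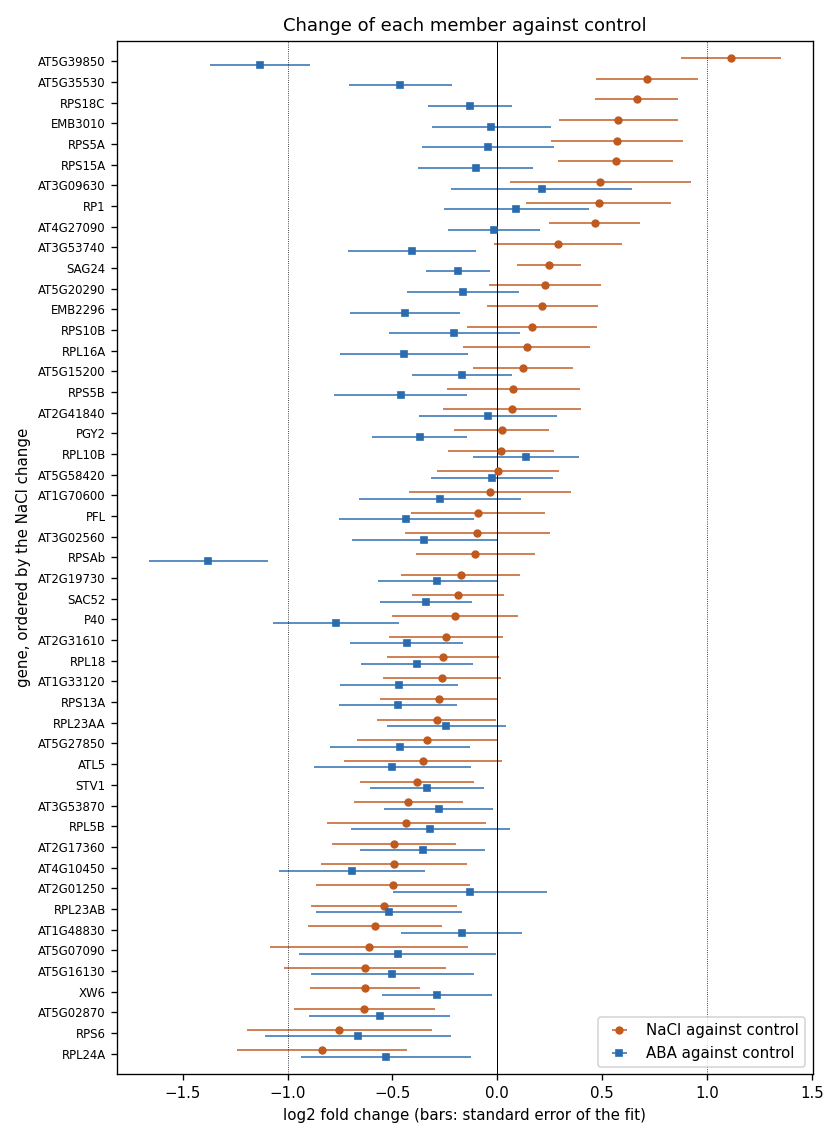
Log2 fold change of each of the 49 genes against control (x axis) with the standard error of the limma fit, for NaCl (circles) and ABA (squares), ordered by the NaCl change (y axis). Dotted lines mark a 2-fold change. The NaCl changes spread on both sides of 0, from -0.84 to 1.12, and 46 of the 49 ABA changes lie below 0. Both comparisons use the same 3 control arrays.

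The ABA comparison asked the same of seedlings given the hormone. 0 of the 49 members passed the adjusted p in either direction in limma, with or without the 2-fold limit. Of all genes, 1.53% were called, 0.945% up and 0.585% down, and 1.86% passed the adjusted p alone, 1.09% higher and 0.768% lower. At an unadjusted p of 0.05, 0 members were higher and 3 were lower, where 17.1% of all genes passed. The methods' t-test, unadjusted, with the same fold limit called 2 lower, where it called 1.65% of all genes lower. Although no member was called, 46 of the 49 were lower with ABA, or 93.9%, beside 56.3% of all genes. The median log2 fold change was -0.35, against -0.05 over all genes, and the members ranged from -1.38 to 0.21. For 5 members all ABA arrays were below all control arrays, and for 0 they were above. The corresponding shares of all genes were 16.7% and 11.1%.

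The low values with ABA were for the most part those of array ABA 2. Setting each member against its own control mean, the median difference was 0.05 on ABA 1, -0.93 on ABA 2 and -0.20 on ABA 3. ABA 2 was the lowest ABA array for 48 of the 49 members, whereas it was the lowest for 37.4% of all genes. Without ABA 2, 29 members were lower and 20 higher than control, and the members' median was -0.08, beside -0.05 for all genes. The shift on ABA 2 was not seen in bright genes in general. Of the members, 42 had a mean log2 intensity of 12 or more and a median of -0.92 on ABA 2, and 3144 other genes at or above that level had a median of -0.004.

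The NaCl arrays also stood apart from each other for these genes. The median difference from the control mean was -0.35 on NaCl 1, -0.31 on NaCl 2 and 0.23 on NaCl 3. NaCl 3 was the highest NaCl array for 46 of 48 members with a value on all 3 arrays, and for 38.5% of all genes. Without NaCl 3, 36 members were lower and 13 higher than control with a median of -0.31. 2 members, RPL24A and AT1G48830, were then called lower, where 14.7% of all genes were. For AT1G48830 the NaCl 2 spot had been left out, so that this call rests on NaCl 1. The control arrays differed less, with medians of 0.17, -0.10 and -0.03 on control 1, control 2 and control 3. Within groups, the median standard deviation of the members was 0.21 in control, 0.50 in ABA and 0.34 in NaCl, where all genes had 0.25, 0.22 and 0.29.

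**Figure D2:**
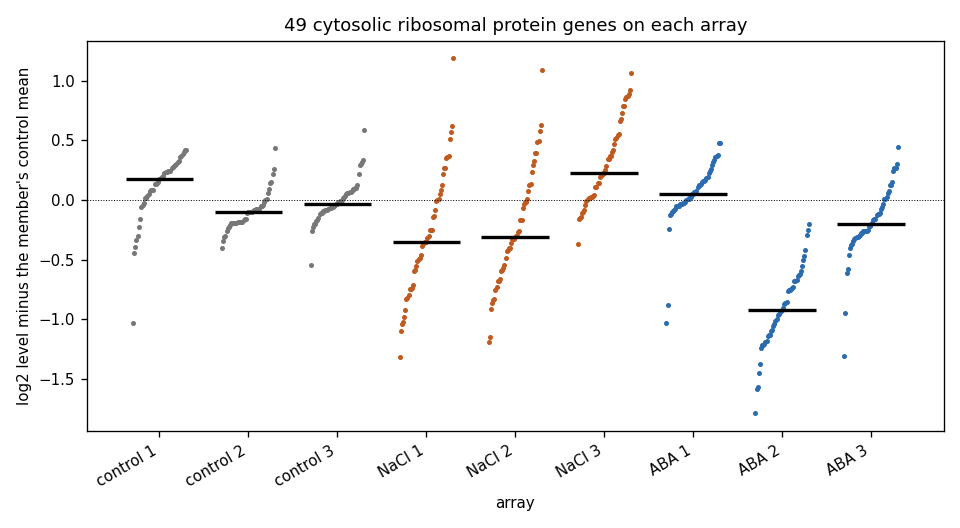
Log2 level of each member on each array minus its mean over the control arrays (y axis), by array (x axis), 1 point a gene, with a black line at the median. The members move together between arrays of the same group: the median is -0.93 on ABA 2 and 0.05 on ABA 1, and 0.23 on NaCl 3 and -0.35 on NaCl 1.

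Markers of dividing cells differed between the same arrays. All 7 genes of the list, cyclins, cyclin-dependent kinases, the cytokinesis syntaxin listed as SYP111 and the replication genes PCNA1 and MCM2, were tested. The median level of the list was 8.27 on ABA 1, 6.78 on ABA 2 and 7.77 on ABA 3, and 6.42, 6.59 and 8.14 on NaCl 1, NaCl 2 and NaCl 3. On the control arrays it was 7.89, 7.53 and 7.22. The list was thus lowest on ABA 2 among the ABA arrays and highest on NaCl 3 among the NaCl arrays, as the ribosomal protein genes were. The dividing cell list was not alone in this on ABA 2, where the lists of ribosome assembly and translation genes also had their lowest ABA median. The ribosome assembly list also had its highest NaCl median on NaCl 3. With salt 1 of the 7 fell, MCM2, and 0 rose. With ABA 0 of 7 were called. Against control the list differed from the members. All 7 markers had a fitted change below 0 with NaCl, with a median of -1.04, where the members' median was -0.11. With ABA 4 of the 7 were below 0, with a median of -0.06, where the members' median was -0.35. The log2 of the summed intensity of the list ranged from 10.82 to 11.74 in control, from 10.07 to 11.84 in ABA and from 9.49 to 11.08 in NaCl. All 7 markers were well above background on every control and ABA array, and 6 of the 7 on every NaCl array. In whole seedlings, fewer cells of a type and less RNA per cell cannot be told apart, and the part of dividing cells in the members' levels was not tested.

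Some markers of organs were called with the salt treatment. Of 8 root markers 6 were tested, since EXPA7 and IRT1 were not well above background on all arrays of any group. 3 of the 6, SHV2, RHD2 and MYB36, were called higher with NaCl and 0 lower. By the fitted change 5 of the 6 were higher and 1 was lower, at -1.71, which was not called. SHV2 was well above background on 1 of the 3 control arrays and MYB36 on 2 of the 3, and both on all 3 NaCl arrays. These 2 genes were thus kept through the group in which they were high, and only RHD2 of the 3 was well above background on all 9 arrays. The median level of the root list was 8.69, 8.52 and 6.47 on the NaCl arrays, between 5.18 and 6.08 in control, and 6.40, 4.74 and 5.43 on the ABA arrays, so that it too was lowest on ABA 2. The log2 summed intensity of the root list ranged from 9.13 to 13.70 in control, from 8.75 to 13.09 in ABA and from 12.87 to 14.97 in NaCl. Of 6 green tissue markers, 2 fell with NaCl and 0 rose. By the fitted change 5 of the 6 were lower and 1 was higher, at 0.29, which was not called. Their log2 sum ranged from 19.85 to 20.23 in control, 20.13 to 20.17 in ABA and 19.84 to 19.93 in NaCl. 0 of either list was called with ABA, and the part of root and green tissue in the members' salt values was not tested.

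**Figure D3:**
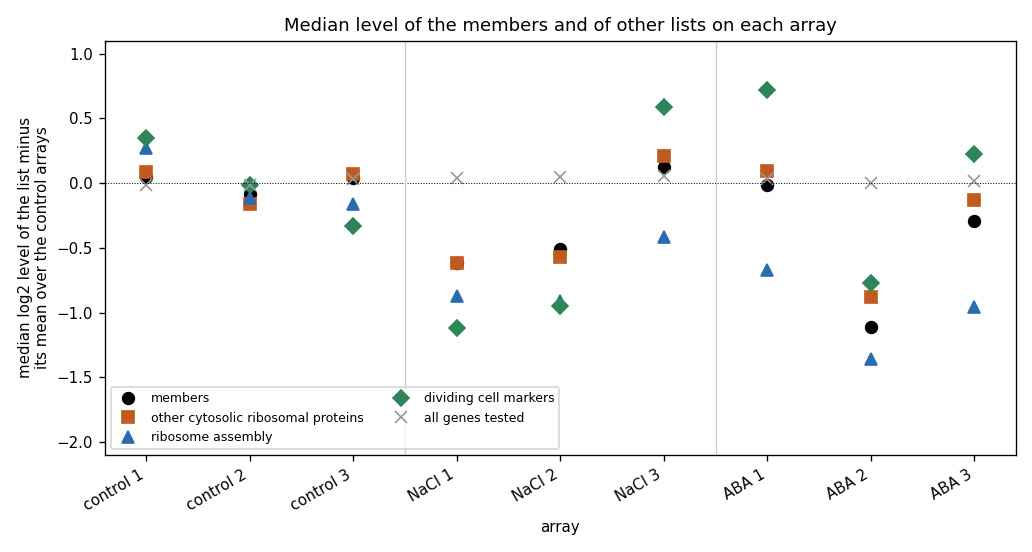
Median log2 level of each gene list minus its mean over the 3 control arrays (y axis), by array (x axis). The members, the other ribosomal protein genes and the dividing cell markers are all lowest on ABA 2 among the ABA arrays and highest on NaCl 3 among the NaCl arrays, and the median of all genes tested stays near 0.

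Subtracting the members' own median from each array removes the part that they share. The median standard deviation within groups then went from 0.38 to 0.15. Relative to that median, 37 of the 49 members differed by less than 0.5 between NaCl and control and 44 by less than 0.5 between ABA and control. The relative salt differences ran from -0.63 for RPL24A to 1.33 for AT5G39850, and the NaCl arrays lay wholly above the controls for 16 members and wholly below for 10. With ABA the counts were 5 and 4. Without the subtraction, 24% and 29% of all genes lay wholly above and below the controls with NaCl and 11.1% and 16.7% with ABA. Members did so for 7 and 3 with NaCl and for 0 and 5 with ABA. The counts after the subtraction cannot be set against those shares, since it narrowed the spread within groups and was not made for all genes. With ABA the relative differences ran from -0.97 for RPSAb to 0.62 for AT3G09630. These differences are relative to the other members only and were not tested.

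RPSAb had the lowest fitted change with ABA. It encodes a copy of the small-subunit protein SA, whose animal counterpart is also known as a laminin receptor precursor. Its log2 intensity was 10.15, 9.37 and 9.78 on the control arrays and 8.73, 7.98 and 8.46 on the ABA arrays, so the groups did not overlap. The log2 difference was -1.38 with a standard error of 0.28 and an adjusted p of 0.057 in limma, just short of the limit. With each array left out in turn, the log2 difference stayed between -1.58 and -1.17 and the adjusted p between 0.053 and 0.16. A second probe of RPSAb gave -1.31. With NaCl the gene stood at 9.46, 9.47 and 10.05, within the range of the controls, a log2 difference of -0.11 with an adjusted p of 0.79.

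P40, the other copy of SA, went lower with ABA by less. It stood at 14.27, 13.81 and 13.90 on the control arrays and at 13.75, 12.54 and 13.38 on the ABA arrays. All ABA values were below all control values, and the log2 difference was -0.77 with a standard error of 0.30 and an adjusted p of 0.25. On each ABA array the ratio of RPSAb to P40 was lower than its control mean, by log2 values of -0.79, -0.34 and -0.70, a difference between the copies that was not tested. 

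AT5G39850, the gene that rose with salt, was lower with ABA. On the ABA arrays it stood at 7.73, 7.04 and 7.66, below all 3 control arrays. The log2 difference was -1.13 with a standard error of 0.24 and an adjusted p of 0.061, which missed the limit. The highest fitted values with ABA were 0.21 for AT3G09630, 0.14 for RPL10B and 0.09 for RP1, the large-subunit protein L3, with adjusted p-values of 0.86, 0.84 and 0.94. The groups of these 3 genes overlapped, and the sign turned negative for each of them without control 1. For RPL10B and RP1 the control 2 spot had been left out, so that control 3 alone then stood for the controls.

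The means of ABA and NaCl were also compared directly. The control arrays do not enter the fold change there, but they do enter the normalization and the estimate of the spread behind the p-values. 0 of the 49 members were higher with ABA and 3 were lower by the adjusted p and 2-fold rule, where 10.9% and 9.56% of all genes were. By the adjusted p alone 4 were lower, against 17.2% of all genes, and 7 were lower at an unadjusted p of 0.05, which 47% of all genes passed in either direction. The 3 called genes were AT5G39850, RPSAb and AT5G35530. The members' median was -0.20, beside 0.01 for all genes, with 34 lower and 15 higher, and without ABA 2 it was 0.09.

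Among these 3 genes AT5G39850 had the widest gap, with a log2 difference of -2.25, a standard error of 0.24 and an adjusted p of 0.00068 in limma. RPSAb differed by -1.27 with an adjusted p of 0.011, and AT5G35530 by -1.18 with an adjusted p of 0.0083. The arrays of the 2 treatments did not overlap for any of them. Without ABA 2, AT5G35530 was no longer called, with a log2 difference of -0.91, and its dimmer probe gave 0.06. RPS18C was the fourth gene past the adjusted p, with a log2 difference of -0.79 and an adjusted p of 0.017. The highest values were 0.41 for AT1G48830, 0.37 for AT2G01250 and 0.34 for XW6, with adjusted p-values of 0.35, 0.42 and 0.33, and AT1G48830 turned negative without NaCl 1.

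**Figure D4:**
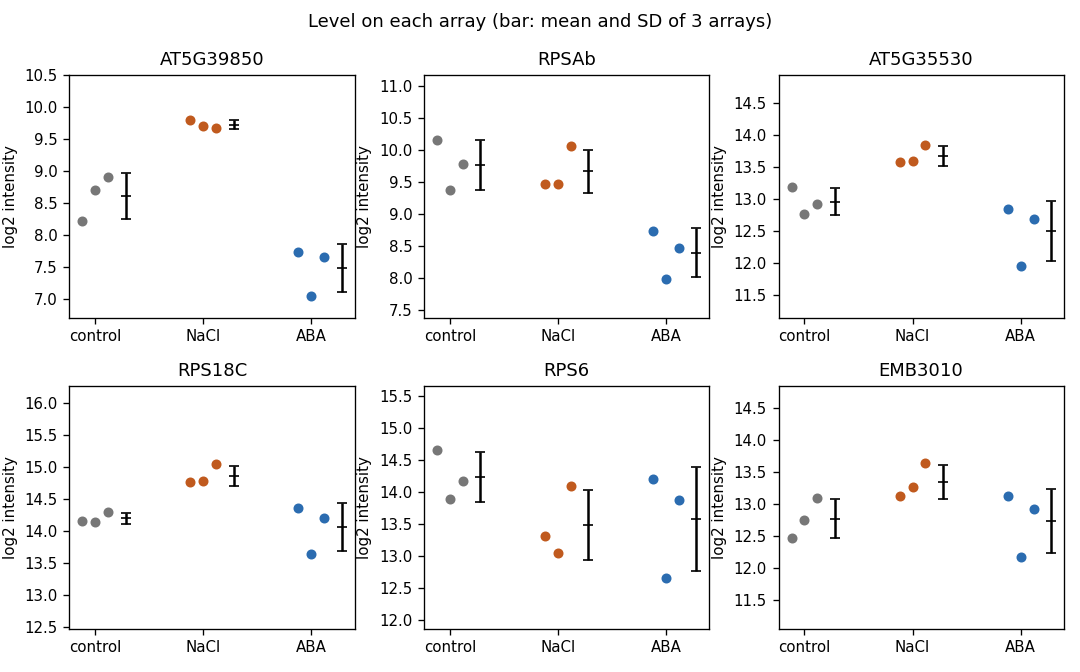
Log2 intensity (y axis) of 6 members on the 3 arrays of each group (x axis), with the mean and standard deviation beside the points. Every panel spans the same number of log2 units. AT5G39850 is highest on the NaCl arrays and lowest on the ABA arrays, RPSAb is lower on the ABA arrays than on all other arrays, and RPS6 and EMB3010 have NaCl differences of opposite sign.

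By subunit, the 12 members named as large-subunit proteins had a median log2 fold change of -0.27 with NaCl and -0.34 with ABA, and 0 of them passed the adjusted p in either comparison. The 11 named as small-subunit proteins had medians of 0.08 and -0.43, and 1 of them, RPS18C, passed the adjusted p alone with NaCl. AT5G39850 and AT5G35530, which also passed it, are small-subunit proteins in the list of members but are not among the 11. 4 of the 12 large-subunit and 6 of the 11 small-subunit genes were higher with NaCl. With ABA 10 of the 12 and 11 of the 11 were lower. A difference between the subunits was not tested.

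Of the 23 genes named in the reference table, 17 belong to 8 groups of copies of the same protein. Other members, which only the list of members names by protein, were not grouped. Among them AT5G39850 and AT5G15200 are listed as copies of S9. The brightest probe of AT5G15200 differed by 0.12 with NaCl and by -0.17 with ABA, where AT5G39850 had 1.12 and -1.13. Of the 8 groups, S6 had the widest range with salt. EMB3010, the other S6 copy, stood at 12.48, 12.76 and 13.09 on the control arrays and at 13.13, 13.27 and 13.65 on the NaCl arrays, a log2 difference of 0.58 with an adjusted p of 0.14, while RPS6 had -0.75. The ratio of EMB3010 to RPS6 was above its control mean by log2 values of 1.28, 1.69 and 1.02 on the NaCl arrays, and by 0.39, 0.99 and 0.52 on the ABA arrays. On the control arrays it varied from -0.72 to 0.39, so the NaCl and the ABA arrays all lay above that spread, the lowest ABA array by less than 0.01.

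For S18, PFL had a log2 difference of -0.09 with NaCl where RPS18C had 0.66. PFL is the copy known from a mutant with pointed first leaves. The ratio of RPS18C to PFL was above its control mean by 0.92, 0.84 and 0.50 on the NaCl arrays, and no control array was more than 0.20 above it. With ABA the copies had log2 differences of -0.43 for PFL and -0.13 for RPS18C.

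RPS5A and RPS5B, copies of the small-subunit protein S5, differed by 0.57 and 0.08 from control with NaCl and by -0.04 and -0.46 with ABA. The control 1 value of RPS5A was left out. For L24, RPL24A had -0.84 with NaCl and STV1 had -0.38. STV1 is known for its part in translation after upstream reading frames and in the patterning of the gynoecium. For L10, a protein that in yeast joins the large subunit late in its assembly, SAC52 had -0.19, RPL10B 0.02 and SAG24 0.25 with NaCl, and -0.34, 0.14 and -0.19 with ABA.

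The copies of L5 and L23A were closer to each other. L5 binds a small ribosomal RNA of the large subunit, and its copies ATL5 and RPL5B had log2 differences of -0.35 and -0.43 with NaCl and of -0.50 and -0.32 with ABA. L23A lies at the exit of the tunnel through which the new protein leaves the ribosome. RPL23AA and RPL23AB had -0.29 and -0.54 with NaCl and -0.24 and -0.51 with ABA. None of the 17 genes was called against control, and differences between copies were not tested. Copies with near-identical sequence may share signal on an array.

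The members had 88 probes, of which 87 were kept, and 30 members had more than 1 kept probe. The brightest probe and the mean of the others had the same sign with ABA for 26 of the 30 members and with NaCl for 23 of the 30. The median absolute difference between them was 0.18 for NaCl and 0.10 for ABA. For AT5G15200 the brightest probe differed by 0.12 with NaCl and the other by a measured -2.41. That second probe was well above background on all 3 control arrays but on 1 of the 3 NaCl arrays only, so that this value rests in part on signals near background and its size is not known. Its log2 intensity was 6.68, 6.15 and 6.20 in control and 3.49, 3.69 and 4.63 in NaCl. AT3G09630 had 0.49 in its brightest probe, whose control 1 value of 11.41 was far below the 12.88 and 13.03 of the other controls, and -0.98 in the mean of its others. RP1 had 0.48 and -0.48. With the dimmest probe of each gene in place of the brightest, 37 members were lower with NaCl and 12 higher, with a median of -0.28, and 3 were called lower, namely RPL24A, AT3G09630 and AT5G15200, where 14.8% of all genes were called lower in that setting.

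**Figure D5:**
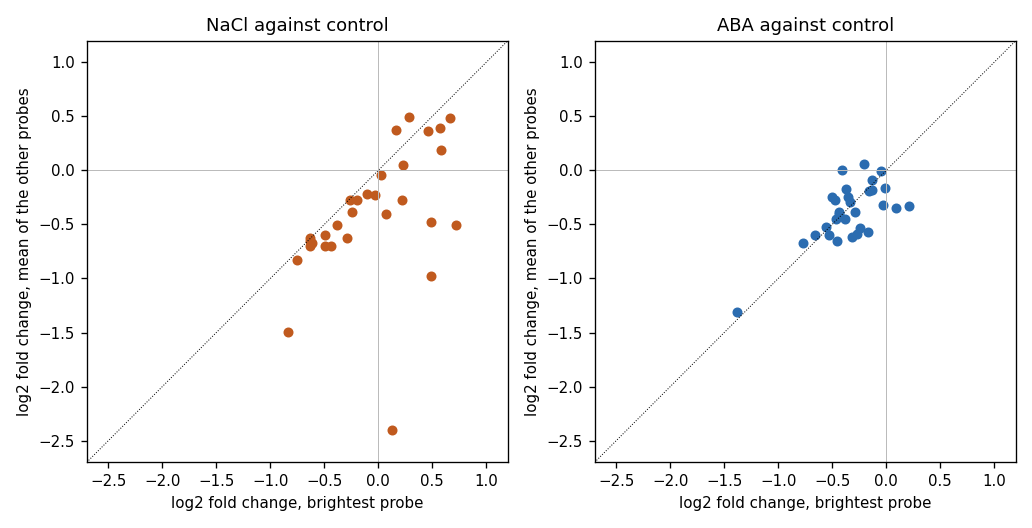
Log2 fold change of the mean of the other kept probes (y axis) against that of the brightest probe (x axis) for the 30 members with more than 1 kept probe, for NaCl (left) and ABA (right). The dotted line marks equal values. Most points lie near the line, and the lowest NaCl point is AT5G15200, with 0.12 and -2.41, whose second probe was well above background on 1 of the 3 NaCl arrays.

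The scale chosen between arrays sets the level of the salt comparison. With no scaling, the median of all genes was -0.30 for NaCl against control and 0.48 for ABA against control, and in the series table, whose NaCl columns have a distribution of their own, it was -0.95 for NaCl. From the series table, 0 members rose and 26 fell with NaCl, and without scaling 0 rose and 3 fell, beside the 1 and 0 above. Of all genes, 45.3% fell from the series table and 17.4% without scaling, so that 26 of 49 was near the general share and 3 of 49 below it. Relative to the median of all genes, the members' median was lower by values that ranged less, -0.03 after quantile normalization, -0.21 with 75th percentile scaling, -0.24 without scaling and -0.11 in the series table. For ABA the same differences were -0.29, -0.38, -0.39 and -0.30.

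Other genes of the ribosome and of translation were set beside the members. A further 158 loci listed as cytosolic ribosomal proteins, of which the reference table names 16, had a median of -0.13 with NaCl, with 3 up and 2 down, and -0.39 with ABA, with 0 called and 151 lower. These values were close to those of the members, at -0.11 and -0.35. Of the called genes, RPL18AA had a log2 fold change of -1.15 and AT1G27400 of -1.13 with NaCl. AT5G09500, called higher, was well above background on 1 of the 3 control arrays only and was kept through the treated groups, so no fold change is given for it.

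Of 18 genes for ribosome assembly, which act in the nucleolus and in the maturation of the subunits, 1 fell with each treatment and 0 rose. The gene was FZF, at -1.16 with NaCl (adjusted p = 0.0079) and -1.51 with ABA (adjusted p = 0.028 in limma). FZF stood at 11.88, 11.11 and 11.37 on the control arrays, at 9.98, 9.57 and 10.28 on the ABA arrays and at 10.15, 10.36 and 10.38 on the NaCl arrays. Neither treatment overlapped the controls. The median of the list was -0.45 with NaCl and -0.75 with ABA, with 17 of 18 lower with ABA.

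Of 14 genes for translation factors and RACK1, a protein bound to the small subunit, 0 were called in either comparison with control, and their medians were 0.20 with NaCl and -0.40 with ABA. Of 7 genes of the TOR pathway, 1 rose with NaCl and 0 with ABA. It was S6K2, a kinase of S6, at a log2 fold change of 1.63 with an adjusted p of 0.016. S6K2 stood at 11.85, 11.23 and 10.32 on the NaCl arrays and at 9.61, 9.09 and 9.82 on the control arrays, so the groups did not overlap.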

How the data were processed

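Total RNA of 9 samples was hybridised to one-colour Agilent arrays of 43603 probes. Per the file headers, the authors made the intensity values with Feature Extraction 10.7.3.1, with local background subtraction and no scaling between arrays. The deposited files also give marks of 0 or 1 for spots above background, saturated or non-uniform (other values). The log2 values of the series table were quantile-normalized by the authors, and control and ABA columns have equal quantiles while NaCl columns have others. The series table therefore served as an alternative only. Its ABA columns match the array files in another replicate order.

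Probes were matched to loci through RefSeq accessions (34392 probes, 25426 loci). Log2 intensities were quantile-normalized over 9 arrays, after which marked spots were left out. Leaving them out first moved the median of all genes from -0.07 to -0.11 with NaCl and from -0.05 to -0.11 with ABA. A probe was kept where every array of some group had it well above background (30660 probes), and the brightest kept probe represented each gene. limma 3.58.1 (R 4.3.3, data.table version 1.17.8, jsonlite 2.0.0) was fitted to all 9 arrays without a block, with p-values adjusted over 23058 genes by Benjamini-Hochberg and 2.04 prior degrees of freedom. A call needed an adjusted p under 0.05 and a 2-fold change. The fit was tested on simulated data. With 3 against 3 arrays no permutation p can be under 0.1.

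Members and gene lists were chosen with earlier results of these data known, and the lists come from general knowledge of the genes. By the rule for named genes, per-array values are given for members called against control, copies of the same protein and the 3 largest and 3 smallest changes of each comparison are named, and up to 3 called genes of other lists are named. The further members shown by array, the other groups of copies and the probes of AT5G15200, AT3G09630 and RP1 were singled out after their values were seen. So were the salt values of XW6. Normexp used the median signals of spot and background, with an offset of 50. Alternatives were other scaling, background correction, filters, probe choice, tests, blocks and left-out arrays. Promoter and protein sequences were not analysed here. Figures used Python 3.11.15, pandas 2.3.3 and matplotlib 3.10.9.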

Additional observations from a re-analysis of the deposited data

How the results depend on the processing

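Without scaling between arrays, 0 members were called up and 3 down with NaCl (median -0.55), the ABA median was 0.088, and between ABA and NaCl 4 were called higher and 1 lower (median 0.65). Of all genes, 17.4% were then down with NaCl, and 35.5% higher and 3.61% lower between ABA and NaCl. From the series table, 0 were called up and 26 down with NaCl (median -1.05), and 13 higher and 1 lower between ABA and NaCl (median 0.76), where 45.3% of all genes were down with NaCl and 42.2% higher and 3.3% lower between ABA and NaCl. These settings move the median of all genes as well, by construction of the scale. With normexp, AT5G39850 was at 0.90 with NaCl, so 0 were called up (7.28% of all genes), and 1 member (RPSAb) was called down with ABA (0.481% of all genes). Among probes above background on all arrays, 2 members (RPSAb and AT5G39850) were called down with ABA (0.706% of all genes). The same 2 were called down by the methods' t-test without adjustment (1.65% of all genes). With slide as a random block (consensus correlation -0.34) they were called down too (2.45% of all genes). Each slide held arrays of 1 group only, so that fit cannot separate slide from treatment. Its limma adjusted p for AT5G39850 with NaCl was 8.2e-05, beside 0.0081 without the block, so it was the less strict fit. By the methods' t-test after Benjamini-Hochberg, 0 were called up with NaCl (1.83% of all genes) and 0 lower between ABA and NaCl (2.98%). With marked spots left out before normalization, an alternative chosen after seeing the data, 1 member (AT5G39850) was called down with ABA (0.737% of all genes). The mean of all probes called 2 down with NaCl (13.2% of all genes), and the dimmest probe 3 down with NaCl (14.8%) and 1, AT5G15200, higher between ABA and NaCl (12.8%).

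Left-out arrays gave 0 to 1 members called up and 0 to 2 called down with NaCl (median -0.31 to -0.01), 0 up and 0 down with ABA (median -0.54 to -0.08), and 0 higher and 2 to 3 lower between ABA and NaCl (median -0.41 to 0.09). Of all genes, 8.72% to 11.4% were then called up and 10.2% to 14.7% down with NaCl, and 7.73% to 10.4% lower between ABA and NaCl. The call of AT5G39850 was lost without control 1 (0.92).

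Signs turned for RPS18C (-0.30) and AT5G35530 (-0.24) with NaCl in the series table, for AT5G35530 with the dimmest probe (-0.51 with NaCl, 0.056 between ABA and NaCl), and with ABA for RP1 and AT3G09630 with the mean of probes (-0.0031 and -0.15) and the dimmest probe (-0.35 and -0.23). With 1 array left out, RPL10B ranged from -0.084 to 0.36, RP1 from -0.25 to 0.43 and AT3G09630 from -0.30 to 0.51 with ABA, each lowest without control 1, and RP1 was also below 0 without ABA 1 (-0.10). AT1G48830 ranged from -0.028 (without NaCl 1) to 0.86 between ABA and NaCl. Except where the scale is named, the cause was not tested.

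Same-numbered arrays deviated together in no regular way (correlations from -0.28 to 0.23), and arrays of unlike number had correlations from -0.31 to 0.29. A pairing by number was thus not seen, which 3 arrays a group cannot exclude. The fit with the replicate block called 1 member up with NaCl (10.2% of all genes) and 3 lower between ABA and NaCl (9.25%), as without it. The members' medians were -0.10, -0.34 and -0.20, and over all genes that fit called 152 up and 79 down with ABA in place of 218 and 135.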
